A study of Mus musculus with 30 samples.

Results

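The genes described here encode the subunits of the oxidative phosphorylation system, measured in bulk RNA from mouse fracture callus. The rule for members used gene symbols alone (the Nduf, Sdh, Uqcr, Cox and Atp5 subunit families and the mitochondrial protein-coding genes) and no expression values, but this set of genes was taken up with earlier results of these data known. This gave 102 genes of the 55416 in the count table, 89 of them nuclear and 13 mitochondrial. The nuclear genes comprised 39 of complex I, 4 of complex II, 8 of complex III, 19 of complex IV and 19 of complex V. The mitochondrial genes comprised 7 of complex I, 1 of complex III, 3 of complex IV and 2 of complex V. Nuclear and mitochondrial genes are reported apart.

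Oxidative phosphorylation takes place in the inner mitochondrial membrane. Complex I (NADH dehydrogenase) and complex II (succinate dehydrogenase) pass electrons through complex III (cytochrome bc1) to complex IV (cytochrome c oxidase), and complex V (ATP synthase) makes ATP from the proton gradient that results. Most subunits are encoded in the nucleus and imported, whereas complex II has no subunit encoded by mitochondrial DNA. Fracture callus mixes cartilage, which is avascular and relies largely on glycolysis, with bone, marrow, immune cells and fragments of injured muscle, which is rich in mitochondria.

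The callus came from a closed, non-stabilized fracture of the left tibial diaphysis and was collected at 3, 6, 10 and 14 days post fracture (dpf). P-Apex1KO mice carried Prrx1-Cre and 2 conditional alleles of Apex1, which encodes a DNA repair endonuclease and redox factor, so that deletion was directed to limb mesenchyme and its descendants while blood, immune and muscle cells kept the gene. The animals labelled WT were littermates with Cre and 1 conditional allele, or with 1 or 2 conditional alleles and no Cre, and the labels do not separate these genotypes. There were 4 WT and 4 P-Apex1KO libraries at 3-dpf, 5 and 3 at 6-dpf, and 4 and 3 at both 10-dpf and 14-dpf. Both sexes were present in every group except P-Apex1KO at 14-dpf, in which all 3 were female, while only replicate 1 of the 4 WT at that time was female.

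Total gene counts ranged from 18334389 to 43111491 over the 30 libraries. Levels are given as CPM, a gene's counts divided by its library's total and scaled to a common size by TMM over all libraries, as mean ± SD or as each library's value in replicate order. Log2 fold changes are P-Apex1KO over WT at one time point from edgeR with sex as a covariate, and a gene was called when its p, adjusted over all genes tested, was below 0.05. Apex1 was at 30.5, 26.3, 33.2 and 31.9 CPM in WT at 3-dpf and at 18.5, 28.7, 28.1 and 34.3 CPM in the libraries labelled P-Apex1KO. These overlapped, and replicate 4 labelled P-Apex1KO exceeded every WT library. At 6-dpf Apex1 was at 20.8, 25.3, 25.4, 28.3 and 20.4 CPM in WT and at 15.2, 15.4 and 15.9 CPM in P-Apex1KO (log2 fold change -0.67, adjusted p = 0.0071). At 10-dpf the values were 23.5, 16.982, 27.4 and 27.7 CPM against 13.7, 16.976 and 15.6 CPM, so that the groups only just did not overlap (log2 fold change -0.65, adjusted p = 0.028). At 14-dpf they were 19.6, 27.2, 22.9 and 26.4 CPM against 14.8, 18.3 and 14.0 CPM, without a call (log2 fold change -0.29, adjusted p = 0.37).

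The 14-dpf contrast has a particular limit. Because only WT replicate 1 shares the sex of the P-Apex1KO animals, the fitted fold change at 14-dpf compares the 3 P-Apex1KO libraries with that single WT library, and genotype and sex cannot be told apart without it. WT replicate 1 also had the highest summed CPM of 20 skeletal muscle markers among WT at that time (11822, against 3371 to 4157 in the other WT libraries). For the genes described at 14-dpf the value from a fit that omits sex is therefore given as well, in which Apex1 was called lower (log2 fold change -0.55, adjusted p = 0.0187).

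Of the 13 mitochondrial genes, 5 were nearly absent from the counts: mt-Co2, mt-Co3, mt-Atp6, mt-Atp8 and mt-Nd4l had at most 16 counts in any library. They encode cytochrome c oxidase subunits (mt-Co2, mt-Co3), ATP synthase subunits (mt-Atp6, mt-Atp8) and a complex I subunit (mt-Nd4l), and cells with functional mitochondria transcribe all of them. The authors counted only reads with a single place in the genome. In GRCm39 every 59-base window (the read length) of these 5 genes also occurs in the nuclear genome. The same was true of 99.0% of windows of mt-Nd3, 62.0% of mt-Nd4, 46.9% of mt-Co1, 7.25% of mt-Nd2 and 4.70% of mt-Nd5, and of 0% for mt-Nd1, mt-Nd6 and mt-Cytb. The shared stretch consists of a run of 3067 bases at chrM:6394-9460, present at chr1:24652199-24655265, and a run of 1581 bases at chrM:9462-11042, present at chr1:24650616-24652197. The ends of this stretch lie inside mt-Co1, at chrM:6363-6452, and inside mt-Nd4, at chrM:10984-11073, and are shown on the plus strand of GRCm39 because they mark where countable mitochondrial sequence stops and resumes, with the bases shared with chromosome 1 in capitals.
mt-Co1: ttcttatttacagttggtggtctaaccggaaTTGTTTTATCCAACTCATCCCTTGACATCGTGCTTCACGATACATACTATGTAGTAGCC
mt-Nd4: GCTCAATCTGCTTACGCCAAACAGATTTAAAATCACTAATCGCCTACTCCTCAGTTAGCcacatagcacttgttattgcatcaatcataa

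The other 8 mitochondrial genes were counted at levels that differed widely. Per kilobase of transcript, mt-Co1 was highest (4281 CPM per kb as the mean of the 8 group means), followed by mt-Cytb (1577) and mt-Nd1 (1335), mt-Nd4 (531), mt-Nd2 (444), mt-Nd5 (390) and mt-Nd6 (271). mt-Nd6 is the only mitochondrial subunit transcribed from the light strand. mt-Nd3 was at 7.69 CPM per kb, below most nuclear subunits. mt-Cytb and mt-Nd1 overlapped over libraries (968 to 2229 and 681 to 2254 CPM per kb), as did mt-Nd4, mt-Nd2 and mt-Nd5. The values of mt-Co1, mt-Nd4 and mt-Nd3 count only part of each transcript, so these levels are lower limits and their fold changes rest on the part that could be counted. Of the 5 wholly shared genes, 4 were not tested at any time and mt-Co3 was tested only at 6-dpf and 14-dpf.

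**Figure D1:**
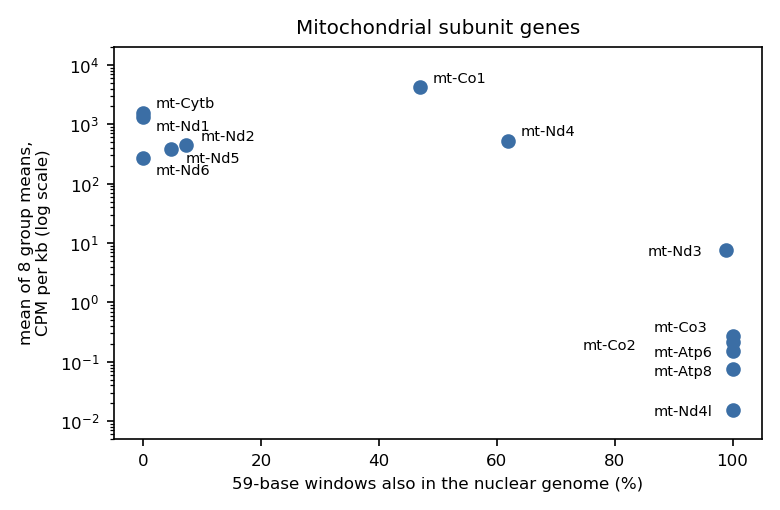
Mitochondrial subunit genes by the percentage of their 59-base windows that also occur in the nuclear genome of GRCm39 (x axis) and by their level, the mean of 8 group means in CPM per kb of transcript (y axis, log scale). Each point is 1 gene: the 5 genes at 100% lie below 1 CPM per kb, whereas the 3 genes at 0% lie between 271 and 1577.

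Among nuclear subunits the catalytic beta and alpha subunits of ATP synthase led, with Atp5f1b at 356 and Atp5f1a at 208 CPM per kb. They were followed by the complex IV subunits Cox4i1 (185), Cox6b1 (160), Cox8a (158) and Cox6a1 (156), whose library values overlapped. Ndufa4, filed with complex I by its symbol although its product is found in complex IV, was at 129 CPM per kb. Not tested were Cox7b2 and Ndufb11b and 1 of the 2 identifiers named Atp5po, all with 0 counts, and Cox8c, the testis isoform, with 1 count over all libraries. Cox5b-ps, with at most 12 counts per library, was tested at 3-dpf and 6-dpf only. Named pseudogene copies carried counts beside Ndufa12 (3.18 CPM against 35.4 CPM of the gene) and Ndufs5 (1.52 against 8.95 CPM), so the values of these 2 genes are uncertain.

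The summed CPM of the mitochondrial genes was higher in P-Apex1KO at 6-dpf and at 14-dpf, with no overlap. At 3-dpf it was 14221, 10477, 8433 and 10654 in WT and 17691, 13286, 13317 and 11969 in P-Apex1KO, which overlapped. At 6-dpf it was 11037, 9963, 9423, 10700 and 10687 in WT and 11976, 15851 and 14143 in P-Apex1KO, a ratio of means of 1.35. At 10-dpf the 3 P-Apex1KO libraries (11001, 10700 and 10199) lay within the WT range of 7975 to 11402. At 14-dpf WT was at 11119, 10019, 9360 and 10521 and P-Apex1KO at 12662, 13160 and 15586, again a ratio of 1.35.

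The nuclear sum did not move in the same way. Its ratio of means was 1.10 at 3-dpf, 1.09 at 6-dpf and 1.02 at 10-dpf, each with overlap, and 0.853 at 14-dpf, where P-Apex1KO (4057, 5156 and 5006 CPM) lay below WT (5626, 5662, 5275 and 5672 CPM). The ratio of mitochondrial to nuclear CPM at 14-dpf was therefore 1.84 ± 0.10 in WT (SD, n = 4) and 2.93 ± 0.33 in P-Apex1KO (SD, n = 3), without overlap. The lower sum at 14-dpf was not particular to the nuclear subunits. The summed CPM of symbols beginning with Rpl or Rps also lay below WT, at a ratio of means of 0.850. At that time 33 of 77 mitochondrial ribosomal genes and 30 of 94 Rpl or Rps symbols lay below every WT library. The share over all genes was 24.7%. In bulk RNA a lower level can come from fewer cells of a type or from less RNA per cell, and these cannot be told apart. Skeletal muscle markers, summed over 20 genes, ran from 6742 to 12631 CPM in WT and from 15426 to 33391 CPM in P-Apex1KO at 6-dpf. At 14-dpf they ran from 3371 to 11822 and from 12033 to 36514 CPM. At 10-dpf they ran from 4429 to 10137 and from 8677 to 26130 CPM, a ratio of means of 2.66 beside 2.54 at 6-dpf, while the ratio of the mitochondrial sums was 1.07. At 14-dpf the muscle ratio was 4.49 beside a mitochondrial ratio of 1.35, and at 3-dpf these were 1.82 and 1.28. The muscle markers and the mitochondrial sums were thus both higher without overlap at 6- and 14-dpf. Their ratios did not move in proportion over the time points. The part of muscle in the sums was not tested.

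**Figure D2:**
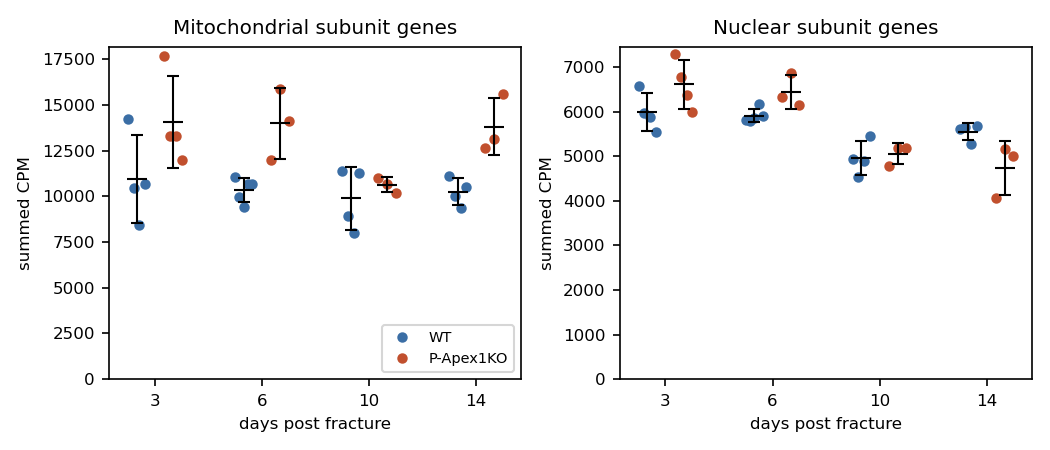
Summed CPM of the nuclear and of the mitochondrial subunit genes in each library by time point, with each group's mean and SD. Mitochondrial sums of P-Apex1KO lie above WT at 6-dpf and 14-dpf, and nuclear sums lie below WT at 14-dpf.

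At 3-dpf no subunit gene was called in either direction. The same held for all 19866 genes tested, of which 0% were called higher and 0% lower. The fold changes of the members were small: 82 of the 85 nuclear genes tested were above 0 with a median log2 fold change of 0.14, and all 8 mitochondrial genes tested were above 0 with a median of 0.33, beside -0.003 for all genes. At an unadjusted p below 0.05 there were 6 nuclear and 2 mitochondrial genes, all above 0. Over all genes there were 1216 of 19866, with 795 of them above 0. In 6 nuclear genes every P-Apex1KO value exceeded every WT value, among them Cox5b, Uqcrc1, Ndufs7 and Cox7a1, and in none was it the reverse, against 1.88% and 1.73% of all genes. Cox5b, a nuclear complex IV subunit, had the smallest p of the nuclear members (log2 fold change 0.28, adjusted p = 0.77).

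At 6-dpf 10 nuclear subunit genes rose and 2 fell in P-Apex1KO, and 1 mitochondrial gene rose. These were 10 and 2 of 85 nuclear genes tested, beside 5.31% called higher and 5.61% called lower among all 20260 genes. Fold changes above 0 were found in 78 of 85 nuclear genes (median log2 fold change 0.18) and in 8 of 9 mitochondrial genes (median 0.43), with a median of 0.01 for all genes. In 36 nuclear genes every P-Apex1KO value exceeded every WT value, and in 2 it lay below, beside 9.44% and 11.1% of all genes. Called genes fell into 3 kinds: isoforms of muscle and testis with the larger increases, core and accessory subunits with small increases, and a pair of alternative subunits, Cox4i2 and Ndufa4l2, that fell.

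**Figure D3:**
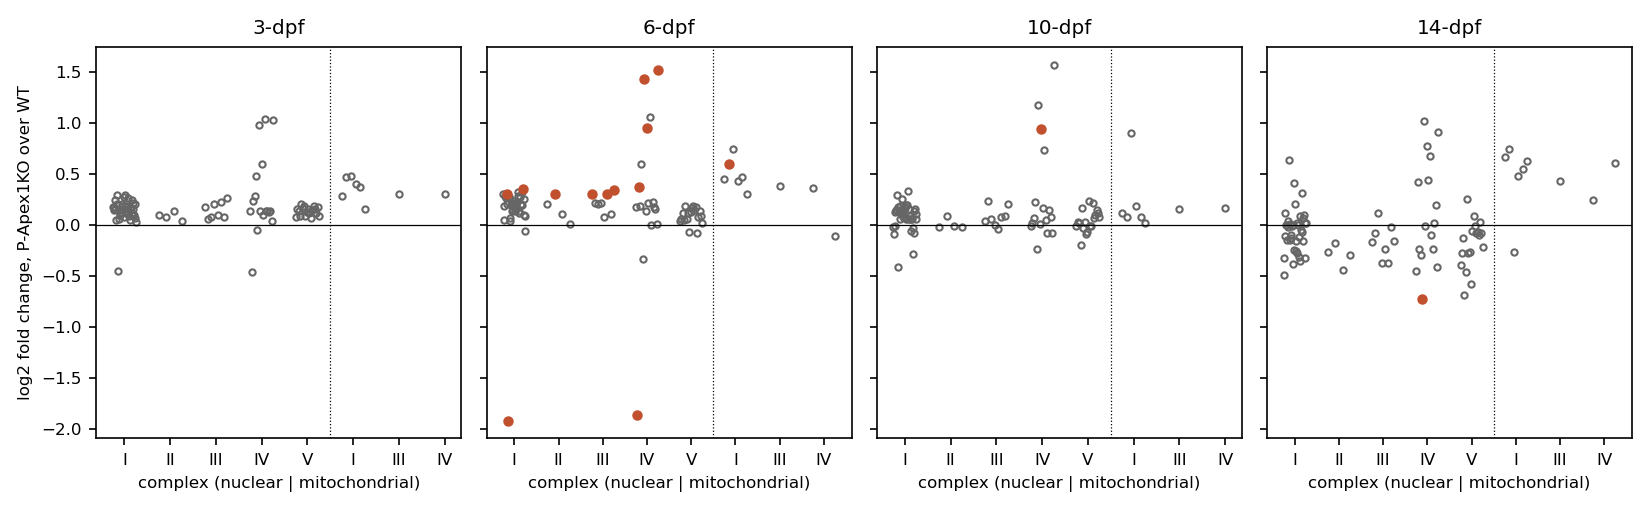
Log2 fold change (P-Apex1KO over WT) of each subunit gene tested, by complex and genome of origin, at each time point. Filled points were called at an adjusted p below 0.05; at 6-dpf Cox8b and Cox6a2 lie highest at 1.52 and 1.43, and Ndufa4l2 and Cox4i2 lowest at -1.92 and -1.86.

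Cox4i2 and Ndufa4l2 were the subunit genes that differed most between genotypes at 6-dpf. Cox4i2 (chr2:152595625-152606959, GRCm39, plus strand) encodes the alternative form of cytochrome c oxidase subunit 4, used in lung and under low oxygen in place of Cox4i1. Ndufa4l2 (chr10:127350818-127353038, plus strand) encodes a relative of Ndufa4 that is induced by hypoxia-inducible factor. At 6-dpf Cox4i2 was at 17.2, 25.7, 19.6, 23.8 and 28.9 CPM in WT and at 8.55, 7.06 and 3.17 CPM in P-Apex1KO. Every WT library exceeded every P-Apex1KO library, at a fold of 0.275 (log2 fold change -1.86, SE 0.31, adjusted p = 0.00744). Ndufa4l2 was at 57.8, 74.1, 61.9, 81.0 and 92.6 CPM in WT and at 20.9, 27.1 and 10.4 CPM in P-Apex1KO. The groups again did not overlap, at a fold of 0.264 (log2 fold change -1.92, SE 0.30, adjusted p = 0.00588). The partner isoforms did not fall with them: Cox4i1 was not called (175 ± 15.7 against 157 ± 6.16 CPM in WT, SD, n = 3 and 5) and Ndufa4 rose.

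Expressed per transcript length, Cox4i2 made up 13.1% ± 2.1 of Cox4i1 plus Cox4i2 in WT at 6-dpf (SD, n = 5) and 3.50% ± 1.4 in P-Apex1KO (SD, n = 3). Ndufa4l2 made up 35.1% ± 5.0 of Ndufa4 plus Ndufa4l2 in WT and 10.4% ± 4.2 in P-Apex1KO. At 3-dpf Cox4i2 was low in both genotypes, at 2.50, 1.93, 0.98 and 2.25 CPM in WT and 1.90, 1.51, 1.30 and 1.19 CPM in P-Apex1KO. Ndufa4l2 was at 24.9, 16.1, 20.7 and 21.3 CPM in WT and 16.0, 8.43, 21.4 and 14.2 CPM in P-Apex1KO at 3-dpf, which overlapped and lay near its P-Apex1KO levels at 6-dpf. At 10-dpf Cox4i2 was at 7.71, 7.23, 13.8 and 8.57 CPM in WT and 7.95, 10.8 and 10.5 CPM in P-Apex1KO, which overlapped. At 14-dpf it was at 3.52, 7.34, 7.18 and 6.86 CPM against 4.78, 3.83 and 5.11 CPM. Ndufa4l2 ranged from 12.7 to 42.8 CPM in WT and from 10.5 to 26.1 CPM in P-Apex1KO at 10-dpf, and from 7.66 to 14.1 and 6.20 to 9.01 CPM at 14-dpf. Neither gene was called at 3-, 10- or 14-dpf, nor at 14-dpf without the sex term (log2 fold change -0.38 and -0.56, adjusted p = 0.273 and 0.0808).

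Between 3- and 6-dpf Cox4i2 rose in both genotypes, by 3.58 on the log2 scale in WT (SE 0.31) and by 2.09 in P-Apex1KO (SE 0.33, adjusted p = 0.00103). Ndufa4l2 rose by 1.80 in WT (SE 0.29, adjusted p = 0.000327), and its change of 0.37 in P-Apex1KO was not called (SE 0.31, adjusted p = 0.49). The difference between the genotypes in this change was -1.48 for Cox4i2 (SE 0.44, unadjusted p = 0.0042, adjusted p = 0.14 with edgeR) and -1.44 for Ndufa4l2 (SE 0.42, adjusted p = 0.14). DESeq2, which called 3.97% of all genes for this difference, gave adjusted p = 0.0197 and 0.0137 for the same 2 genes, whereas the other edgeR settings gave 0.110 to 0.125 for Cox4i2. Between 10- and 14-dpf both genes fell in WT, Cox4i2 by 0.76 (SE 0.17, adjusted p = 0.0111) and Ndufa4l2 by 1.07 on the log2 scale (SE 0.26, adjusted p = 0.0212). In P-Apex1KO the corresponding values were -0.64 and -0.49, neither called (adjusted p = 0.19 and 0.55). In the fit without sex 0 nuclear genes were called lower in WT between these times, so neither fall was called.

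Cartilage markers moved beside these 2 genes. Of 10 markers, including Col2a1 and Acan, all 10 were called lower at 6-dpf with a median log2 fold change of -3.004. Their summed CPM ran from 29594 to 52523 in WT and from 2088 to 4098 in P-Apex1KO, and at 3-dpf from 349 to 403 and from 112 to 507. At 10-dpf the cartilage sums overlapped (15149 to 40935 in WT and 9705 to 17372 in P-Apex1KO), as Cox4i2 and Ndufa4l2 did. Osteoblast markers were also lower at 6-dpf (9 of 10 called, 38472 to 52606 in WT and 17824 to 28263 in P-Apex1KO), and endothelial markers were not called. The part of these cell types in the values of Cox4i2 and Ndufa4l2 was not tested. Both calls held with each library left out in turn, with log2 fold changes from -2.28 to -1.57 for Cox4i2 and from -2.24 to -1.64 for Ndufa4l2. With the muscle score as a covariate the values were -1.53 (SE 0.57, adjusted p = 0.49) and -2.03 (SE 0.57, adjusted p = 0.37), in a fit that called 1 gene of 20260.

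**Figure D4:**
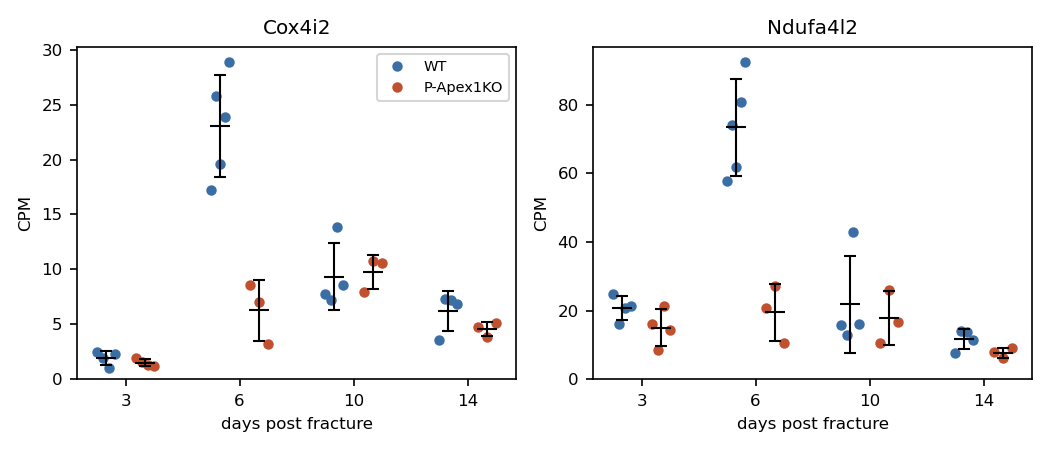
Cox4i2 and Ndufa4l2 in each library (CPM) by time point and genotype, with group means and SD. At 6-dpf the WT libraries of Cox4i2 run from 17.2 to 28.9 CPM and the P-Apex1KO libraries from 3.17 to 8.55 CPM.

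The muscle isoforms rose at 6-dpf. Cox6a2 (chr7:127804607-127805559, minus strand), Cox7a1 and Cox8b (chr7:140477069-140480359, minus strand) replace Cox6a1, Cox7a2 and Cox8a in heart and skeletal muscle. Cox8b was at 14.2, 14.7, 14.3, 11.01 and 9.80 CPM in WT and at 28.7, 51.4 and 35.8 CPM in P-Apex1KO. This was a 2.87-fold increase without overlap (log2 fold change 1.52, SE 0.20, adjusted p = 0.00246). Cox6a2 was at 14.9, 12.0, 14.5, 11.5 and 8.89 CPM in WT and at 22.9, 50.9 and 32.7 CPM in P-Apex1KO, a 2.695-fold increase (log2 fold change 1.43, SE 0.26, adjusted p = 0.0108). The call of Cox6a2 was lost without WT replicate 2 or WT replicate 4, with adjusted p up to 0.0537. Cox7a1 was not called (8.59 ± 3.55 against 3.66 ± 1.45 CPM, adjusted p = 0.10), and its groups overlapped.

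The constitutive partners did not follow. Cox8a was at 97.6 ± 10.0 CPM in P-Apex1KO and 98.0 ± 7.8 CPM in WT at 6-dpf, and Cox6a1 at 104.3 ± 16.2 and 134 ± 12.7 CPM, neither called. Per length, Cox6a2 was 22.2% of the Cox6a pair in P-Apex1KO and 7.30% in WT, and Cox8b was 9.46% and 3.35% of the Cox8 pair. Skeletal muscle markers moved beside these isoforms: all 20 were above 0 and 17 were called higher at 6-dpf (median log2 fold change 1.37), with Acta1 at 1180 CPM in WT and 3098 in P-Apex1KO. With the muscle score (the mean log2 CPM of the 20 markers) as a covariate, Cox8b had 0.72 (SE 0.18, adjusted p = 0.32), Cox6a2 0.35 (SE 0.18, adjusted p = 0.63) and Cox7a1 had -0.19. In that fit 1 of 20260 genes was called, so a lost call there does not separate the subunits from other genes.

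At 10- and 14-dpf the muscle isoforms were not called. At 10-dpf Cox8b was at 2.50, 2.01, 5.77 and 10.1 CPM in WT and at 19.1, 8.53 and 13.8 CPM in P-Apex1KO, overlapping only through WT replicate 4 (log2 fold change 1.57, adjusted p = 0.16). At 14-dpf it was at 10.8, 3.58, 3.71 and 3.34 CPM in WT and at 8.22, 24.5 and 27.0 CPM in P-Apex1KO. WT replicate 1, the female, stood above the other WT libraries, and P-Apex1KO replicate 1 lay between them (log2 fold change 0.91, SE 0.61, adjusted p = 0.38). Without the sex term the log2 fold changes at 14-dpf were 1.95 for Cox8b (adjusted p = 0.033), 2.01 for Cox6a2 (0.027) and 1.51 for Cox7a1 (0.043). None of the 20 muscle markers was called at 10-dpf or 14-dpf in the fit with sex, and 11 were called higher at 14-dpf without it.

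Cox6b2 (chr7:4754789-4756093, minus strand), the testis isoform of Cox6b, was called at 6- and 10-dpf. At 6-dpf it was at 5.79, 5.45, 6.24, 3.93 and 5.38 CPM in WT and at 11.1, 8.51 and 9.60 CPM in P-Apex1KO (1.93-fold, log2 fold change 0.95, SE 0.15, adjusted p = 0.00547). At 10-dpf it was at 2.72, 3.30, 2.702 and 2.66 CPM in WT and at 5.33, 6.01 and 4.44 CPM in P-Apex1KO (1.92-fold, log2 fold change 0.94, SE 0.18, adjusted p = 0.0252). At 14-dpf the values were 2.31, 2.00, 2.87 and 2.86 CPM against 3.72, 3.36 and 4.503 CPM, again without overlap, not called with sex (log2 fold change 0.77, adjusted p = 0.18) and called without it (log2 fold change 0.68, adjusted p = 0.0270). With the muscle score as a covariate its log2 fold change was 0.92 at 6-dpf (SE 0.28) and 1.11 at 10-dpf (SE 0.25), with adjusted p of 0.41 and 0.18. The 10-dpf call was lost without P-Apex1KO replicate 1, WT replicate 1 or WT replicate 2, with adjusted p up to 0.145. Levels were low, at most 323 counts in a library.

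**Figure D5:**
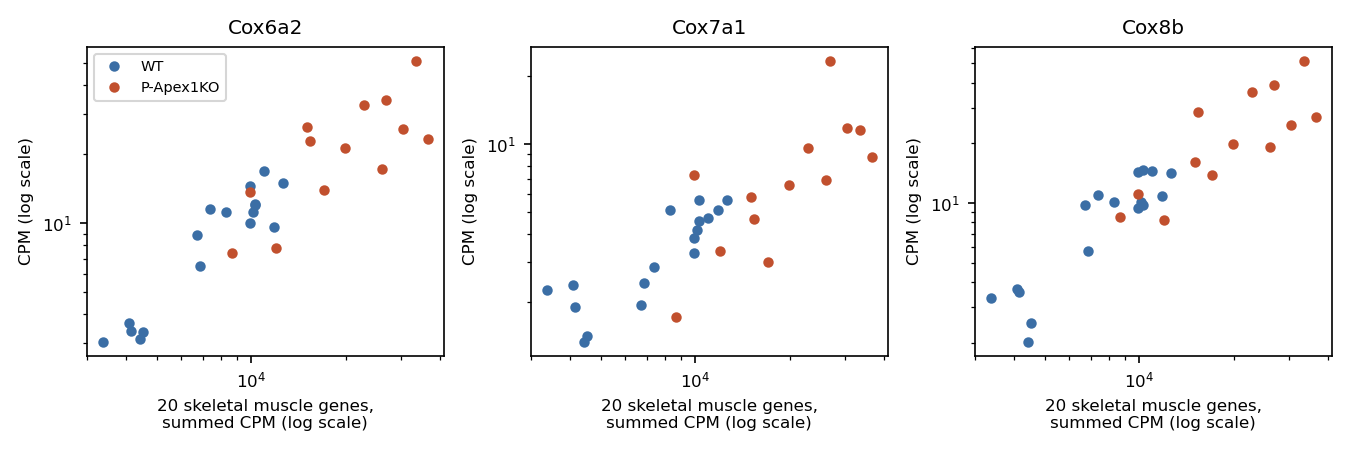
CPM of Cox6a2, Cox7a1 and Cox8b in each library (y axis) against the summed CPM of the skeletal muscle markers (x axis), on log axes. Points are coloured by genotype, and time points are not marked.

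Of the core and accessory subunits, 7 were called higher at 6-dpf, each by less than the muscle isoforms. Uqcrq, Uqcr10 and Uqcrfs1 belong to complex III, of which Uqcrfs1 is the Rieske iron-sulfur protein. Uqcrfs1 was at 61.8, 57.1, 61.3, 58.1 and 56.5 CPM in WT and at 73.5, 74.8 and 67.4 CPM in P-Apex1KO (1.23-fold, log2 fold change 0.30, SE 0.08, adjusted p = 0.0319). Uqcr10 (0.30) and Uqcrq (0.34) changed by similar amounts, so that 3 of 8 nuclear complex III genes were called higher (5.31% of all genes) and in 6 of 8 every P-Apex1KO value was above every WT value (9.44% of all genes). Sdhb, the iron-sulfur subunit of succinate dehydrogenase, was at 57.6, 61.3, 61.9, 61.6 and 58.0 CPM in WT and at 72.6, 80.4 and 71.5 CPM in P-Apex1KO (1.24-fold, log2 fold change 0.30, SE 0.07, adjusted p = 0.0313). It was the only one of the 4 complex II genes called.

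In complex I, Ndufs7, which holds the terminal iron-sulfur cluster, was at 31.6, 27.4, 34.0, 29.4 and 29.7 CPM in WT and at 38.3, 39.8 and 35.6 CPM in P-Apex1KO (1.28-fold, log2 fold change 0.35, SE 0.09, adjusted p = 0.0338). Ndufa4 was at 75.2, 74.8, 74.5, 73.9 and 69.9 CPM in WT and at 87.3, 92.0 and 94.2 CPM in P-Apex1KO (1.23-fold, log2 fold change 0.30, SE 0.07, adjusted p = 0.0285). Over the 38 nuclear genes filed with complex I by symbol and tested, 36 were above 0. In 18 every P-Apex1KO value was above every WT value (9.44% of all genes). Of the 38, 2 were called higher and 1 lower (5.31% and 5.61% of all genes). Apart from Ndufs7 these calls were Ndufa4, whose product is found in complex IV, and its relative Ndufa4l2. In complex IV, Cox5a, a subunit encoded in the nucleus, was called at 1.29-fold (log2 fold change 0.37, SE 0.10, adjusted p = 0.0488). None of the 18 nuclear complex V genes tested was called at 6-dpf (16 above 0, median 0.10). At an unadjusted p below 0.05 there was 1 of them, beside 5306 of all 20260 genes.

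These small increases depended on the libraries used, as did calls over all genes. Nuclear calls at 6-dpf numbered 4 without WT replicate 2 or WT replicate 4, 5 without P-Apex1KO replicate 1, 6 without WT replicate 3 and 7 without P-Apex1KO replicate 2. Over all genes 2212 were called with every library (10.9%), 921 without WT replicate 2 (4.58%), 890 without WT replicate 4 (4.44%), 995 without P-Apex1KO replicate 1, 1466 without WT replicate 3 and 2209 without P-Apex1KO replicate 2. Cox4i2, Ndufa4l2, Cox8b and Cox6b2 remained called with each library left out, whereas Cox5a was called in 1 of the 8 such fits. When library size alone was used in place of TMM scaling, the median of all genes moved to 0.20 at 6-dpf and 53 of 85 nuclear genes were called higher, beside 13.7% of all genes in that fit, so the small increases are relative to the scaling. Markers of macrophages (8 of 10 called higher), adipocytes (5 of 9), lymphocytes (4 of 10) and muscle moved with these genes, and their part was not tested.

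Among mitochondrial genes mt-Nd2, a complex I subunit (chrM:3914-4951), was called at 6-dpf. It was at 494, 428, 407, 496 and 517 CPM in WT and at 602, 818 and 746 CPM in P-Apex1KO, without overlap (1.51-fold, log2 fold change 0.59, SE 0.14, adjusted p = 0.0261). mt-Nd1 was at 1300.2, 1264, 1207, 1417 and 1285 CPM in WT and at 1535, 2045 and 1935 CPM in P-Apex1KO, also without overlap (1.37-fold, adjusted p = 0.0513). mt-Nd4, mt-Nd5 and mt-Cytb likewise did not overlap, with log2 fold changes of 0.43, 0.47 and 0.38 and adjusted p of 0.0554, 0.0627 and 0.0988. mt-Co1, at 6936 ± 1068 CPM against 5283 ± 403 CPM, overlapped (adjusted p = 0.21). The call of mt-Nd2 was lost without WT replicate 2, 3 or 4, with adjusted p up to 0.0966. DESeq2 called 7 of the 9 mitochondrial genes tested higher, beside 8.64% of all genes.

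At 10-dpf 1 of 84 nuclear genes tested, Cox6b2, was called higher and none lower, beside 3.01% and 3.44% of all genes. The median log2 fold change was 0.07, and 60 of 84 genes were above 0. In 2 nuclear genes and 1 mitochondrial gene every P-Apex1KO value exceeded every WT value, and in none was it below, beside 8.03% and 11.7% of all genes. None of the 8 mitochondrial genes tested was called. At an unadjusted p below 0.05 there were 4588 of all 18910 genes and 1 mitochondrial gene. That gene, mt-Nd3, was at 1.36, 1.01, 1.22 and 1.76 CPM in WT and at 2.17, 3.33 and 2.05 CPM in P-Apex1KO (adjusted p = 0.0824). As nearly all of mt-Nd3 is shared with chromosome 1, its counts come from few positions.

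At 14-dpf the direction differed between the genomes: 58 of 84 nuclear genes were below 0 (median log2 fold change -0.10), while 8 of 9 mitochondrial genes were above 0 (median 0.55), with 0.04 for all genes. Cox6a1 was the only nuclear gene called, and none of the mitochondrial genes was, beside 4.28% of all genes called higher and 7.04% lower. Cox6a1 was at 78.1, 95.1, 75.4 and 91.7 CPM in WT and at 40.7, 48.3 and 48.6 CPM in P-Apex1KO, without overlap (0.603-fold, log2 fold change -0.73, SE 0.16, adjusted p = 0.0283). Its call was lost without WT replicate 2 or WT replicate 4 (adjusted p up to 0.0621). Cox8a was at 83.8, 97.8, 89.8 and 97.6 CPM in WT and at 58.2, 63.9 and 61.5 CPM in P-Apex1KO (log2 fold change -0.42, adjusted p = 0.0528). Without sex it was called (log2 fold change -0.53, adjusted p = 0.00152). Cox4i1 was at 149, 152, 135 and 154 CPM against 100.1, 105 and 114 CPM (log2 fold change -0.45, adjusted p = 0.0566), and was called without sex (log2 fold change -0.41, adjusted p = 0.00449). These 3 are constitutive forms of subunits with isoforms of complex IV. In each of them every WT library, replicate 1 included, exceeded every P-Apex1KO library, as in 24.7% of all genes. The constitutive forms Cox6b1 and Cox7a2 overlapped between genotypes and were not called. Without sex their log2 fold changes were -0.07 and -0.16 (adjusted p = 0.63 and 0.17).

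In all, 21 nuclear genes lay below and 3 above every WT library at 14-dpf, beside 24.7% and 17.6% of all genes, so the share lying below was near that of all genes. The 3 above were Cox6b2, Ndufa5 and Ndufs4. Those below included the catalytic subunits Atp5f1a and Atp5f1b, the proton-channel genes Atp5mc2 and Atp5mc3, and Sdhc and Sdhd, the membrane anchors of complex II. Atp5f1a had means of 590 CPM in WT and 459 CPM in P-Apex1KO, but was not called (log2 fold change -0.39, adjusted p = 0.20), nor without sex (-0.30, adjusted p = 0.0777). Without the sex term 12 of 84 nuclear genes were called lower and 6 higher, with Cox6a1 (-0.83), Atp5f1d (-0.60) and Atp5mc3 (-0.57) the lowest. That fit called 18.4% of all genes lower and 18.8% higher, so the nuclear shares lay below those of all genes. In it 7 of 8 mitochondrial genes were called higher, from 0.44 for mt-Co1 to 0.77 for mt-Nd2.

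For mitochondrial genes at 14-dpf, 6 of the 9 tested had every P-Apex1KO value above every WT value, beside 17.6% of all genes. mt-Nd1 was at 847, 850.0, 726 and 895 CPM in WT and at 1281, 1172 and 1470.1 CPM in P-Apex1KO (1.58-fold, log2 fold change 0.66, SE 0.19, adjusted p = 0.0592, and 0.72 with adjusted p = 0.00163 without sex). mt-Co1 was at 7222, 6037, 6024 and 6347 CPM in WT and at 7437, 8179.6 and 9303 CPM in P-Apex1KO (log2 fold change 0.24, adjusted p = 0.46, and 0.44 with adjusted p = 0.0287 without sex). Library size alone in place of TMM scaling moved the median of all genes to 0.31 and that of nuclear subunits to 0.17, so the downward direction of the nuclear genes does not hold on that scale. On that scale the nuclear median still lay below that of all genes. At 14-dpf osteoclast markers were called lower in 10 of 10 and osteoblast markers in 7 of 10 (12970 to 14519 and 2004 to 3531 CPM summed in WT and P-Apex1KO for osteoclast markers). Neutrophil (8 of 10) and erythroid markers (8 of 10) were called higher. Of the cartilage markers 9 of 10 were called higher in the fit with sex although their sums overlapped (2353 to 6548 CPM in WT and 3934 to 4487 CPM in P-Apex1KO). Without sex 10 of 10 osteoclast markers were called lower, 8 of 10 osteoblast markers lower, 10 of 10 neutrophil and 10 of 10 erythroid markers higher, and 2 of 10 cartilage markers higher. The part of these cells in the subunit values was not tested.

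Within WT and with TMM scaling, few subunit genes were called for a change with time. From 3- to 6-dpf 8 of 85 nuclear genes were called higher and 4 lower, beside 15.4% and 15.1% of all genes. Apart from Cox4i2 and Ndufa4l2 the increases were below 1 on the log2 scale, led by the complex I accessory subunits Ndufa13 (0.52) and Ndufa11 (0.40) and by Cox6a1 (0.39). Cox5a (-0.44), Ndufs1 (-0.26), Sdha (-0.24) and Sdhb (-0.23) fell. In P-Apex1KO 4 were called higher (Cox4i2, Ndufa13, Ndufa2 and Ndufa11) and none lower, beside 7.1% and 6.91%. From 10- to 14-dpf 5 nuclear genes rose in WT, namely Cox5a (0.40), Uqcrfs1 (0.37), Atp5mc3 (0.37), Sdhc (0.33) and Sdha (0.32), beside Cox4i2 and Ndufa4l2, which fell. The background was 6.19% higher and 4.92% lower. mt-Nd6 fell by 0.44 on the log2 scale (adjusted p = 0.0483) in WT. In P-Apex1KO none of the 84 nuclear genes was called, beside 0.0304% of all genes called higher and 0.228% lower. At an unadjusted p below 0.05 there were 5, beside 2811 of 19705 genes. Within WT the nuclear calls depended on the settings. From 10- to 14-dpf 3 were called higher and 0 lower without sex (945 and 795 of 19162 genes). With library size alone 0 were called higher and 3 lower (788 and 1241 of 19705 genes). From 3- to 6-dpf library size alone gave 3 higher and 36 lower (1902 and 6984 of 20468 genes).

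No nuclear or mitochondrial gene was called for a difference between the genotypes in these changes. With edgeR the smallest adjusted p among nuclear genes was 0.14 for 3- to 6-dpf and 0.17 for 10- to 14-dpf, beside 1.3% and 0.436% of all genes called. At an unadjusted p below 0.05 there were 2 and 11 nuclear and 0 and 1 mitochondrial genes. Over all genes there were 2556 of 20468 and 2577 of 19705. With DESeq2 2 nuclear genes, Cox4i2 and Ndufa4l2, were called for 3- to 6-dpf. With edgeR an effect at one time and not at another was thus not shown to differ between times. This included Cox4i2 and Ndufa4l2. Levels at 6- and 10-dpf were not tested against each other, since the form of the sample names changes between these times. The labels do not say what this change reflects.

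Other genes of mitochondrial metabolism were read from lists chosen by function. Of 16 genes of the tricarboxylic acid cycle and pyruvate dehydrogenase, 3 rose at 6-dpf, beside 5.31% of all genes. These were Idh3a (0.37) and Idh3b (0.39), subunits of isocitrate dehydrogenase, and Fh1 (0.30), fumarate hydratase. The median over the list was 0.18. No gene of this list was called at 10- or 14-dpf, and at 14-dpf 13 of 16 were below 0 (median -0.23). Without sex 10 of 16 were below 0 (median -0.02) and 2 were called lower, beside 18.4% of all genes. Of 11 carriers outside the subunit families, Cycs, cytochrome c, rose at 6-dpf (17.4 to 24.0 CPM as group means, log2 fold change 0.45, adjusted p = 0.0210). Slc25a5, an ADP/ATP carrier, fell at 14-dpf (294 to 325 CPM in WT and 152 to 172 CPM in P-Apex1KO, log2 fold change -0.81, adjusted p = 0.00379), while Gpd2, mitochondrial glycerol-3-phosphate dehydrogenase, rose at 10-dpf (0.37) and 14-dpf (0.62). Without sex the 14-dpf values were -0.85 for Slc25a5 and 0.73 for Gpd2, both called.

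Among 12 regulators, Esrra, an orphan nuclear receptor that drives genes of oxidative metabolism, rose at 6-dpf (24.3 to 33.9 CPM, log2 fold change 0.49, adjusted p = 0.0235). Of the coactivators, Pprc1 fell at 10-dpf (-0.49) and 14-dpf (-0.55), and Ppargc1b fell at 14-dpf from 20.8 to 9.58 CPM (log2 fold change -1.27, SE 0.17, adjusted p = 0.00434). Both were also called at 14-dpf without sex, at -0.57 for Pprc1 and -1.06 for Ppargc1b. Osteoclasts are known to express Ppargc1b, and their 10 markers were also called lower at 14-dpf; the part of osteoclasts in its value was not tested. With edgeR and the sex term none of the 50 assembly factors tested was called at any time point. The same held for 15 genes for copying and transcribing mitochondrial DNA. At an unadjusted p below 0.05 these lists had 3 and 0 genes at 6-dpf and 4 and 1 at 14-dpf. Over all genes there were 5306 of 20260 and 5587 of 20228. Without sex 5 assembly factors (1 higher, 4 lower) and 2 of the 15 (both higher) were called at 14-dpf. That fit called 18.8% of all genes higher and 18.4% lower. Of 77 mitochondrial ribosomal genes tested, Mrpl42 rose and Mrps6 fell at 6-dpf (5.31% and 5.61% of all genes). At 14-dpf Mrpl33 rose and Mrpl52 fell (4.28% and 7.04% of all genes). Without sex 2 were called higher and 14 lower at 14-dpf, beside 18.8% and 18.4% of all genes. With sex the called symbols beginning with Rpl or Rps were Rpl3l, a muscle form (higher at 6-dpf), and Rps6kb1 and Rps6ka1. Rps6kb1 and Rps6ka1 are kinase genes and not ribosomal subunits. Without sex 4 of 93 symbols beginning with Rpl or Rps were called higher and 21 lower at 14-dpf, beside 18.8% and 18.4% of all genes.

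Promoter sequence was available for 68 of the 88 nuclear symbols (73 promoters of 32851, 250 bases before to 50 bases after the start, RefSeq, GRCm38.p6). The 8-base words of NRF1 (GCGCATGC) and YY1 (AAGATGGC), searched on both strands, were each present in 13.7% of member promoters, against 2.71% and 2.75% of all promoters. The words of ETS factors (CCGGAAGT), ERR (CAAGGTCA) and CREB (TGACGTCA) were in 6.85%, 5.48% and 5.48% of member promoters and in 3.89%, 1.56% and 1.79% of all. A word in a window is a description and not evidence of binding. Promoters of genes that turned the results are shown 5′ to 3′ on the coding strand with any of these words in capitals: the muscle isoform Cox8b (chr7:140900397-140900696, minus strand) beside its constitutive partner Cox8a (chr19:7217567-7217866, minus), Cox6a1 (chr5:115348909-115349208, minus), which fell at 14-dpf, and Sdhb (chr4:140961021-140961320, plus), Uqcrfs1 (chr13:30545267-30545566, minus) and Ndufs7 (chr10:80249199-80249498, plus), which rose at 6-dpf.
Cox8b: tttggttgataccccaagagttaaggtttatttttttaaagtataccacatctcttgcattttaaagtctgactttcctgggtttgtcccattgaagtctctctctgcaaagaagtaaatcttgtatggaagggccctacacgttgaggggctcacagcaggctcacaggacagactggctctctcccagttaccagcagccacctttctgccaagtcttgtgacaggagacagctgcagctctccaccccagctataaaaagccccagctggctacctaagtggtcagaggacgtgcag
Cox8a: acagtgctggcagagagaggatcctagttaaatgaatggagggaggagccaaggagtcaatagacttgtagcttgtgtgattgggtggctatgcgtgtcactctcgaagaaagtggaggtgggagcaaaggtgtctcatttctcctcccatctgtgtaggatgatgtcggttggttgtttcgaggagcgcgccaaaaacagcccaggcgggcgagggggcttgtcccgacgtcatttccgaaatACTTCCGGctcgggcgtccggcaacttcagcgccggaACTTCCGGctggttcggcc
Cox6a1: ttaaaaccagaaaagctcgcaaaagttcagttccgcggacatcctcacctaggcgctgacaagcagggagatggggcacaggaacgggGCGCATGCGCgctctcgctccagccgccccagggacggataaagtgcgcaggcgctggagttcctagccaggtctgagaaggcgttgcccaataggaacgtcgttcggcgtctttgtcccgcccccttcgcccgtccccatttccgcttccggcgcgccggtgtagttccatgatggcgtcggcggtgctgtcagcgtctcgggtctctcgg
Sdhb: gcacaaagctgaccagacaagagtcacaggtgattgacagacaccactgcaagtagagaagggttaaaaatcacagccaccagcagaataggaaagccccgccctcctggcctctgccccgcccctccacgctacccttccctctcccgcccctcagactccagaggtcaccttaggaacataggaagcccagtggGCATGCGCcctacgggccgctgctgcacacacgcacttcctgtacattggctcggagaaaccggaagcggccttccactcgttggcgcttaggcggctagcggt
Uqcrfs1: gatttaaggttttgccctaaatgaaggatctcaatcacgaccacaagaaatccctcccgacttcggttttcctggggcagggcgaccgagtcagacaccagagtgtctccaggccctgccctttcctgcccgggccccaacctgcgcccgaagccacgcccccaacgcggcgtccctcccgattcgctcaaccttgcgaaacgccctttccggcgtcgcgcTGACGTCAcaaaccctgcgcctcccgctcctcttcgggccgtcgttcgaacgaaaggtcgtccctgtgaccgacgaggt
Ndufs7: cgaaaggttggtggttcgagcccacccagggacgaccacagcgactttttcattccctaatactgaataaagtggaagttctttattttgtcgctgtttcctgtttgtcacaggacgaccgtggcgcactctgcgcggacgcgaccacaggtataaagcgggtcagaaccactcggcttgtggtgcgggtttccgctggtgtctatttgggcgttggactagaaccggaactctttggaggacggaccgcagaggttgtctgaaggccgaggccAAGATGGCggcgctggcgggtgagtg

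The Cox8b window held none of the 5 words. The Cox8a window held the ETS word on the reverse strand at 2 places. Cox6a1 held the NRF1 word on both strands at overlapping places, from -162, and Sdhb held it at -54. Uqcrfs1 held the CREB word at -29 and Ndufs7 the YY1 word at +25. Cox4i2, Ndufa4l2 and Cox6a2 are named only.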

How the data were processed

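Per the labels and the study's methods, ribosomal RNA was depleted from total callus RNA and strand-specific libraries were sequenced with paired ends, with 59 cycles for the first read. The authors used bcl2fastq 2.20, aligned with STAR 2.7.0d to mm39, and counted uniquely mapped reads per gene on the reverse strand with featureCounts. The deposited table holds these raw counts and was used as deposited. Genes were filtered per time point with filterByExpr, scaled by TMM and fitted with edgeR 4.0.16 (R 4.3.3, quasi-likelihood, robust, genotype plus sex), with Benjamini-Hochberg adjustment over all genes tested and a threshold of 0.05. Changes with time were fitted over 3- and 6-dpf and over 10- and 14-dpf. Alternatives were DESeq2 1.42.0, other scalings and filters, no sex term, a replicate block, a muscle score and leaving out each library. The genotype fits were tested on simulated counts with planted changes larger than the increases called in core and accessory subunits. That test does not cover changes as small as those. The labels do not say what separates replicates beyond their number, so p-values measure the spread between these libraries. Lengths are from GENCODE M39, in which 54749 of the 55416 identifiers were found. Genes were named by role in the complexes, by the largest called changes at each time and by failing the filter. The member rule reads symbols only, but it and the gene lists were chosen with earlier results of these data known. Replicates differed by more than counting noise (chi-square per gene of 5.68 or more).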

Additional observations from a re-analysis of the deposited data

Results flagged for a closer look

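Of 262 groups of 4 or 5 libraries examined (each a measure in one genotype at one time), 18 held a library far from the others by Dixon's test, and chance gives about 1 in 20. P-Apex1KO replicate 1 at 3-dpf was highest for mt-Nd2 (786 CPM), mt-Nd4 (1266 CPM), mt-Nd5 (1103 CPM), mt-Nd6 (259 CPM) and Cox7a1 (23.3 CPM), and it also had the highest summed muscle markers of its group (26976 CPM). WT replicate 1 at 3-dpf was highest for mt-Nd6 (212 CPM), and WT replicate 2 at 3-dpf for Cox8b (14.4 CPM). At 6-dpf WT replicate 5 was lowest for Ndufa4 (69.9 CPM) and WT replicate 4 was highest for Sdhd (90.1 CPM).

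At 10-dpf WT replicate 3 stood above the other WT libraries for Ndufa4l2 (42.8 CPM), WT replicate 4 for Ndufa5 (8.93 CPM) and Ndufv1 (63.4 CPM), and WT replicate 2 for Cox6b2 (3.30 CPM). At 14-dpf WT replicate 1, the only female of its group, was lowest for Cox4i2 (3.52 CPM) and highest for Cox6a2 (9.63 CPM), Cox7a1 (5.11 CPM) and Cox8b (10.8 CPM), and WT replicate 3 was lowest for the nuclear sum (5275 CPM). The part of muscle content and of sex in these values was not tested.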

How the results depend on the processing

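Library size alone in place of TMM shifted the all-gene median (log2) to -0.055, 0.20, 0.075 and 0.31 at 3-, 6-, 10- and 14-dpf. It called 17.7% of all genes at 6-dpf and 13.1% at 14-dpf, beside 10.9% and 11.3% with the settings of the report. In WT from 3- to 6-dpf it called 1902 of 20468 genes higher and 6984 lower. In WT from 10- to 14-dpf it called 788 of 19705 higher and 1241 lower. It gave 55 nuclear and 7 mitochondrial calls at 6-dpf (12 and 1 with the settings of the report). At 14-dpf it gave 4 nuclear, all higher, and 6 mitochondrial (1 and 0), and turned the nuclear median to 0.17. For WT from 3- to 6-dpf it gave 39 nuclear calls (12), 3 higher and 36 lower. For WT from 10- to 14-dpf it gave 3 (7), all lower. The muscle score as a covariate left 0 nuclear and 0 mitochondrial calls at 6-dpf and 0 nuclear at 10-dpf, where it called 1 and 5 of all genes, gave 16 nuclear calls at 14-dpf, all lower (7.49% of all genes lower and 3.79% higher in that fit), and turned the mitochondrial median at 10-dpf to -0.0069. Without a filter the nuclear and mitochondrial calls were 5 and 4 at 6-dpf (6.61% of all genes) and 4 and 2 at 14-dpf (7.85%). With at least 10 counts in every sample mitochondrial calls were 3 at 6-dpf (13.2% of all genes) and 1 at 14-dpf (14.0%). Without sex there were 19 nuclear and 6 mitochondrial calls at 6-dpf (13.8% of all genes) and 18 and 7 at 14-dpf (37.2%). From 10- to 14-dpf there were then 3 nuclear calls for WT, all higher, and 1 for P-Apex1KO, which was lower. Of 19162 genes that fit called 945 higher and 795 lower for WT, and 155 and 517 for P-Apex1KO. With all samples in one model mitochondrial calls were 2, 1 and 5 at 6-, 10- and 14-dpf and nuclear calls 18 at 14-dpf. Of 20642 genes that model called 3077, 1603 and 6188 at 6-, 10- and 14-dpf. DESeq2 gave 7 mitochondrial calls at 6-dpf (17.2% of all genes), and 3 mitochondrial and 2 nuclear at 14-dpf (17.9%). For the difference in change from 3- to 6-dpf it gave 2 nuclear calls (0), beside 3.97% of all genes. It gave 9 for P-Apex1KO from 3- to 6-dpf (4), beside 1882 of 20453 genes higher and 1768 lower. For WT from 10- to 14-dpf it gave 11, beside 1581 of 19688 genes higher and 1269 lower. The replicate block in place of sex gave 3 nuclear and 0 mitochondrial calls at 6-dpf and 2 nuclear at 10-dpf. At 14-dpf it gave 4 nuclear and 3 mitochondrial calls. Over all genes it called 3.14%, 6.44% and 15.8% at these times. Same-numbered WT and P-Apex1KO libraries had correlations of their deviations from -0.26 to 0.41, and not every library correlated best with its own number, so the block is not taken as a pairing of animals.

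With each library left out in turn, nuclear calls ran from 0 to 0, 4 to 12, 0 to 4 and 0 to 9 at the 4 time points and mitochondrial calls from 0 to 0, 0 to 2, 0 to 1 and 0 to 1. At 10-dpf nuclear calls were 0 without P-Apex1KO replicate 1, WT replicate 1 or WT replicate 2, and 4 without WT replicate 4. In that order these fits called 0.225%, 0.603%, 0.995% and 9.78% of all genes. At 14-dpf nuclear calls were 9, 5 and 2 without P-Apex1KO replicates 2, 1 and 3, and 0 without WT replicate 2 or 4. These fits called 19.0%, 15.3%, 12.3%, 6.07% and 6.42% of all genes. Mitochondrial calls at 6-dpf were 2 without P-Apex1KO replicate 1 and 0 without WT replicate 2, 3 or 4. These fits called 4.95%, 4.58%, 7.34% and 4.44% of all genes. The mitochondrial median at 10-dpf ran from -0.0019 without WT replicate 3 to 0.34 without WT replicate 4, and the nuclear median at 14-dpf from -0.17 without P-Apex1KO replicate 2 to 0.016 without P-Apex1KO replicate 1. The fit without WT replicate 1 at 14-dpf was not run, since no female WT then remains. Of the named-gene values, 3253 kept their side of the threshold, 137 gained a call, 86 lost one and 0 changed the sign of a call. The cause of these changes was not tested.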
